A study of Drosophila sechellia and Drosophila simulans with 8 samples.

Results

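The genes described here copy DNA and drive the cell cycle, and they were measured in the bodies of adult females of 2 fruit flies, Drosophila sechellia and Drosophila simulans. Of 36 genes on the list, 25 had a probe set whose annotation names that gene and no other, with 27 probe sets in all among the 18952 of the array. Mcm7, Orc6, geminin, RnrS, E2f1, CycA, Cdk1, stg, polo, aurA and BubR1 were not analysed here. All 27 probe sets passed the filter on dim signal. Each gene is represented by 1 probe set, which matters only for fzy, where the brightest of 3 was taken. By role the 25 genes are 15 of replication, 4 of the G1 to S step and 6 of mitosis.

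There were 4 groups of 2 Affymetrix arrays: sechellia choice, sechellia no choice, simulans choice and simulans no choice, where choice refers to a mix of 2 fatty acids, octanoic and hexanoic acid. The fruit of Morinda citrifolia, on which D. sechellia lives, holds these acids, whereas D. simulans feeds on many hosts; the design crosses species with choice. All groups were reared at 25 °C on the same agar, yeast and cornmeal medium; the sources used here give no strain, age or length of exposure. Whether the 2 numbered arrays of each group hold separate flies is not stated, so the p-values measure only the spread between these arrays, which may be technical. The probes were designed for Drosophila melanogaster, so a difference in sequence and a difference in RNA cannot be told apart in a comparison of species, and the tests compare each probe set only with itself across arrays.

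Replication starts where the origin recognition complex sits on DNA. Cdc6 and the Cdt1 protein, which flies call double parked (dup), load the MCM helicase there, and Cdc7 and the Cyclin E kinase then fire the loaded origins. Ribonucleotide reductase supplies the nucleotides, and the PCNA clamp holds the polymerase to its template. B-type cyclins, the String and Twine phosphatases, the Aurora kinases and the Fizzy activator of the anaphase promoting complex act later, in mitosis and meiosis. In an adult female most cells that replicate DNA lie in the ovary: germline cells divide and become polyploid, follicle cells replicate without dividing and amplify the chorion genes, and the transcripts of many of these genes are stored in the egg.

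Array 1 of sechellia choice was unlike the remaining 7 arrays and is shown apart. Its correlation with the others across 13138 tested probe sets was 0.674 to 0.72, where arrays of the same group otherwise correlated at 0.963 to 0.969. Its bacterial control probe sets, which match no fly RNA, had a median signal of 128.85, against 12.3 to 28.1 on the others. The tests below therefore use 7 arrays, in which sechellia choice is its array 2 alone and is assumed to vary like the other groups, and the values with 8 arrays are given beside them. The oocyte gene osk, a marker of the ovary, read 10097.3 to 14220.4 on the 7 arrays and 6914.1 on array 1 of sechellia choice. Germline genes did not all fall on array 1. There vas read 576.5, against 118.6 to 199.8 on the 7 arrays, and aub 1847.2, against 948.1 to 1319.2. The 15 measured germline genes summed to 26518 on array 1, against 38568.8 to 49384.9 on the 7 arrays. The yolk protein gene Yp1, which both fat body and ovary transcribe, read 19936.7 to 26238.8 on the 7 arrays and 9651.8 on that array. The dimmest signal of any of the 25 genes was at least 7.26 times the median of the bacterial controls on each of the 7 arrays and 1.24 times on array 1 of sechellia choice.

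Without choice, the 25 genes centred near no difference between sechellia and simulans, and single genes differed in both directions. Mcm5, a subunit of the replicative helicase, was lower in sechellia by a factor of 2.37, and 7 other genes differed by factors of 1.2 to 1.58. Orc2, Orc5, CycE, CycB3 and twe were higher, and dup, Mcm5 and CycJ were lower. These are 8 of 25 genes past a Benjamini-Hochberg adjusted p of 0.05 in limma, 5 higher and 3 lower, or 32%. Of all 13138 tested probe sets 28.2% were called in this comparison, 14.5% higher and 13.7% lower, so the share among the 25 genes was near that of the array at large. Their median log2 difference was 0.04, as was that of all tested probe sets, and their median absolute difference was 0.24, against 0.36 for all.

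The calls rest on the 4 arrays of the no choice groups and on the spread taken from all 7. A fit of the 4 arrays alone also gave 5 higher and 3 lower. With 8 arrays, where array 1 of sechellia choice enters the spread but not the means, none was called, as deposited or after quantile normalisation, with 3 genes at an unadjusted p below 0.05 in each; the share called among all tested probe sets was then 4.22% and 4.02%. Without array 1 of sechellia no choice 5 genes were called, without its array 2 only 4, and without array 2 of simulans no choice 4. Without an intensity trend in the spread 2 genes, Mcm5 and CycJ, passed. The shares of all tested probe sets called without single arrays or without the trend are not given here.

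**Figure D1:**
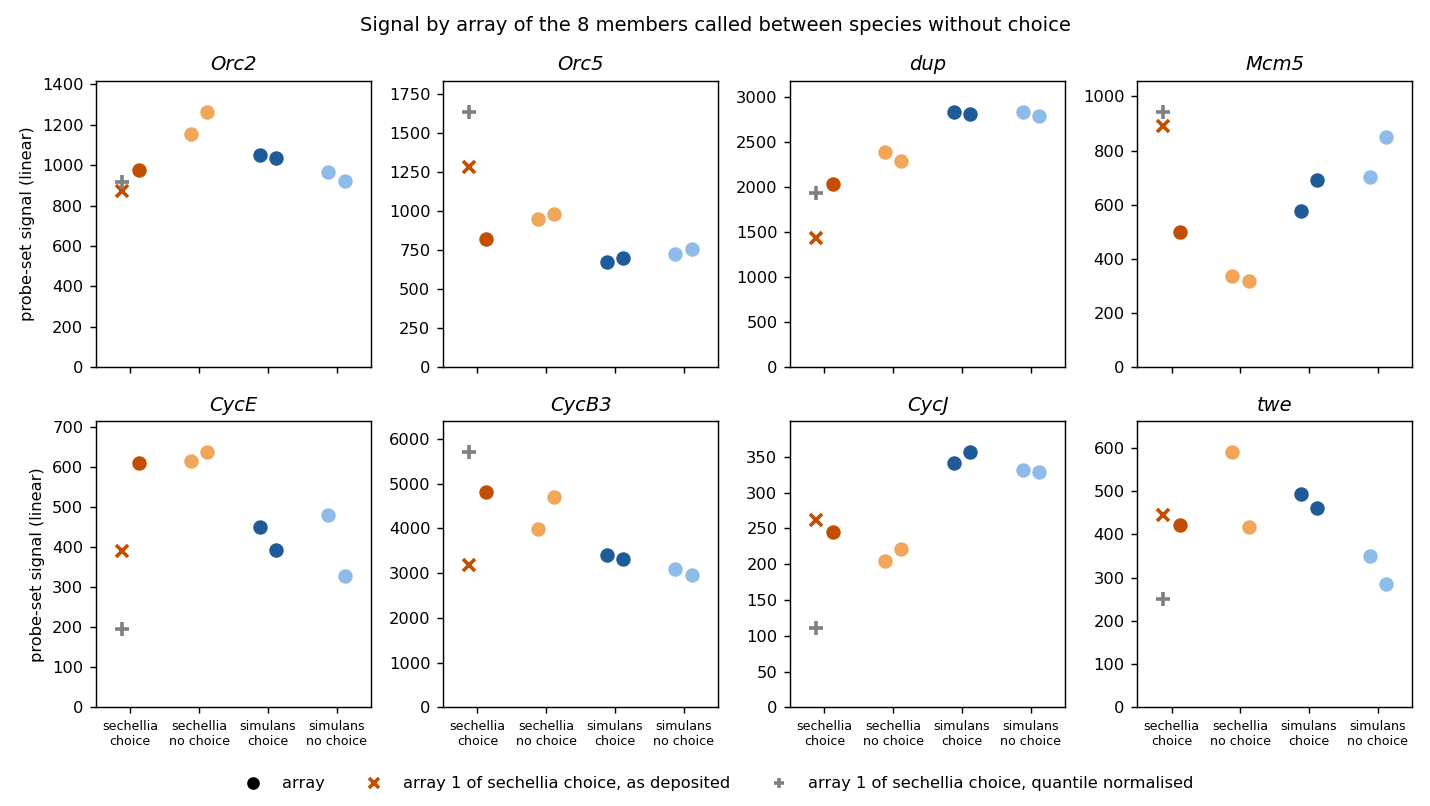
Probe-set signal on a linear scale (vertical axis) on each array of the 4 groups (horizontal axis) for the 8 genes called between the species without choice; circles are arrays, the cross is array 1 of sechellia choice as deposited and the plus sign is that array after quantile normalisation. Orc2, Orc5, CycE and CycB3 lie higher, and dup, Mcm5 and CycJ lower, on both sechellia no choice arrays than on all simulans arrays, and for twe these arrays overlap. The cross and the plus sign often fall outside the range of the circles.

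Among the origin recognition and licensing genes, Orc2 read 1156.1 and 1265.1 on the sechellia no choice arrays, against 964.6 and 920.8 on the simulans no choice arrays. Orc5 read 948.5 and 978.4 in sechellia no choice, against 723.8 and 754.2 in simulans no choice. For both of these subunits of the origin recognition complex the higher group lay wholly above the other. Orc2 was higher by log2 0.36 ± 0.09 (SE, n = 2 arrays per group; limma adjusted p = 0.016) and Orc5 by 0.38 ± 0.09 (limma adjusted p = 0.014).

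The helicase loader dup went the other way. It read 2382.6 and 2289.8 in sechellia no choice, against 2827.6 and 2782.2 in simulans no choice, a log2 difference of -0.26 ± 0.07 (limma adjusted p = 0.018). Orc4, at 0.57 ± 0.21, had a larger estimate but did not pass the test (limma adjusted p = 0.073), since its simulans no choice arrays read 840.7 and 522.1. Orc1 and Cdc6, the remaining genes of this class, gave 0.12 and 0.08.

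The 5 measured subunits of the MCM helicase did not move together. Mcm5 read 336.1 and 317.9 in sechellia no choice, against 702.8 and 852 in simulans no choice. Its log2 difference was -1.24 ± 0.14 (95% interval -1.57 to -0.92; limma adjusted p = 0.00031), past the threshold in each of the 7 fits that left out 1 array. Mcm2, Mcm3, dpa and Mcm6, whose products sit in the same ring, gave 0.20, 0.24, 0.04 and -0.12, and none of them passed. Mcm2, for example, read 3669.2 and 3505.5 in sechellia no choice, against 3069.2 and 3172 in simulans no choice (limma adjusted p = 0.055). With 8 arrays Mcm5 kept its difference and lost its call, at an adjusted p of 0.059 as deposited and, at -1.10, 0.17 after quantile normalisation.

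No gene of origin firing, the fork or nucleotide supply was called without choice. The smallest p in this class was that of RnrL, the large subunit of ribonucleotide reductase. It read 5260.4 and 4747.6 in sechellia no choice, against 4460.6 and 4185.5 in simulans no choice, a difference of log2 0.21 ± 0.08 (limma adjusted p = 0.10). PCNA, the sliding clamp, gave -0.07 with a 95% interval of -0.23 to 0.08, Cdc7 gave -0.06 (-0.23 to 0.11), and Mcm10, which joins helicase and polymerase, gave -0.42 (-0.86 to 0.02).

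Of the G1 to S genes, CycE was called. This cyclin, the partner of Cdk2 at the start of S phase, read 614.3 and 637.2 in sechellia no choice, against 481.4 and 327.4 in simulans no choice, a difference of log2 0.66 ± 0.18 (limma adjusted p = 0.027). Its call was lost without array 1 or array 2 of sechellia no choice and without array 2 of simulans no choice. CycD, Cdk2 and Dp, the partner of the E2F factors, gave 0.04, -0.25 and -0.31 and were not called.

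Of the 4 measured genes for mitotic cyclins and phosphatases, 3 were called, in both directions, where 28.2% of all tested probe sets were. With 8 arrays none of the 4 was called, as deposited or quantile normalised. CycB3, a B-type cyclin that acts in anaphase and in female meiosis, read 3996 and 4692.7 in sechellia no choice, against 3097.1 and 2957.3 in simulans no choice. It was higher by log2 0.52 ± 0.09 (limma adjusted p = 0.0023), past the threshold in each of the 7 fits that left out 1 array. CycJ, a cyclin of the D. melanogaster ovary and early embryo, read 204.1 and 221.1 in sechellia no choice, against 331.8 and 328.2 in simulans no choice, a difference of -0.64 ± 0.15 (limma adjusted p = 0.015).

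The gene twe encodes the Cdc25 phosphatase of meiosis. It read 590.2 and 416.6 in sechellia no choice, against 350.2 and 285.3 in simulans no choice, a difference of 0.65 ± 0.19 (limma adjusted p = 0.032); the call was lost in 4 of the 7 fits that left out 1 array. CycB gave 0.02 ± 0.10, with 16177.7 and 19214.6 in sechellia no choice and 16637.8 and 18168.8 in simulans no choice. Neither aurB, the kinase of the chromosomal passenger complex, at -0.17 (95% interval -0.44 to 0.09), nor fzy, at 0.02 (-0.17 to 0.21), was called. The 2 dimmer probe sets of fzy gave -0.58 and -1.24, neither past the threshold (limma adjusted p = 0.50 for each).

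By role, the median log2 difference was 0.08 over the 15 replication genes, with 2 higher and 2 lower, 0.02 over the 6 mitotic genes, with 2 higher and 1 lower, and -0.11 over the 4 genes of the G1 to S step, with 1 higher. Of all tested probe sets 14.5% were higher and 13.7% lower.

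Under choice, the species differed in 7 of the 25 genes, 1 higher and 6 lower in sechellia, or 28%, where 19.4% of all tested probe sets were called, 9.61% higher and 9.78% lower. CycB3 was the gene that was higher, and Orc1, dup, dpa, Mcm6, Cdc7 and aurB were lower. The sechellia side of each is array 2 alone. The median log2 difference was -0.12 over the 25 genes, against 0.07 over all tested probe sets. It was -0.16 over the replication genes, of which 5 were lower, and -0.14 over the mitotic genes.

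Orc1, the largest subunit of the origin recognition complex, read 1250.5 on array 2 of sechellia choice, against 1721.3 and 1928.2 on the simulans choice arrays. Its log2 difference was -0.54 ± 0.10 (limma adjusted p = 0.0074). The helicase subunit dpa read 1501.8 on array 2 of sechellia choice, against 2075.4 and 2091.2 in simulans choice, and Mcm6 read 2014.1, against 2650.8 and 2625.8. These gave -0.47 ± 0.12 (limma adjusted p = 0.025) and -0.39 ± 0.09 (limma adjusted p = 0.015). In all 3 the sechellia value lay below both simulans values.

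The kinase gene Cdc7 read 1792.5 on array 2 of sechellia choice, against 2403.4 and 2269.2 in simulans choice, a difference of -0.38 ± 0.09 (limma adjusted p = 0.02). The mitotic kinase gene aurB read 417.3, against 698 and 622.1, a difference of -0.66 ± 0.14 (limma adjusted p = 0.013). Both lay below the simulans values, as did dup, at 2029.5 against 2833.7 and 2804.7 (-0.47 ± 0.08, limma adjusted p = 0.0043). CycB3 read 4814.8, against 3413.9 and 3314.1, and was higher by 0.52 ± 0.10 (limma adjusted p = 0.0097).

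Both treatments called dup lower and CycB3 higher in sechellia. The comparisons share no array, but they share the spread. Mcm5, the largest difference without choice, gave -0.34 ± 0.17 under choice (limma adjusted p = 0.22): array 2 of sechellia choice read 499.7, against 578.5 and 689.5 in simulans choice. With array 1 in place of array 2 its sign turned, to 0.50 (limma adjusted p = 0.028). CycE and CycJ gave 0.53 and -0.51 under choice, close to their values without choice, and did not pass the test (limma adjusted p = 0.14 and 0.098). The test of whether the species difference depends on treatment is the interaction given below.

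Averaged over treatments, 11 of the 25 genes were called, 4 higher and 7 lower in sechellia, or 44%, where 32.5% of all tested probe sets were, 16.9% higher and 15.6% lower. Orc4, Orc5, CycE and CycB3 were higher, and Orc1, dup, Mcm5, Mcm6, Cdc7, CycJ and aurB were lower. The largest of these were Mcm5 at -0.79 ± 0.11, Orc4 at 0.61 ± 0.16 and CycE at 0.59 ± 0.14.

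The species counts under choice depended on single arrays. Under choice 3 genes were called without array 1 of simulans choice and 4 without its array 2, fits for which the share of all tested probe sets is not given here. With 8 arrays 0 were called as deposited, with 7 genes at an unadjusted p below 0.05, and 1, CycB3, after quantile normalisation, with 8 such genes; of all tested probe sets 4.14% and 4.59% were called, the second made up of 2.37% higher and 2.21% lower. Averaged over treatments these counts were 0 and 2 (dup lower and CycB3 higher), with 6 and 5 genes at an unadjusted p below 0.05 and 9.87% and 8.88% of all tested probe sets called, the second made up of 4.39% higher and 4.49% lower.

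**Figure D2:**
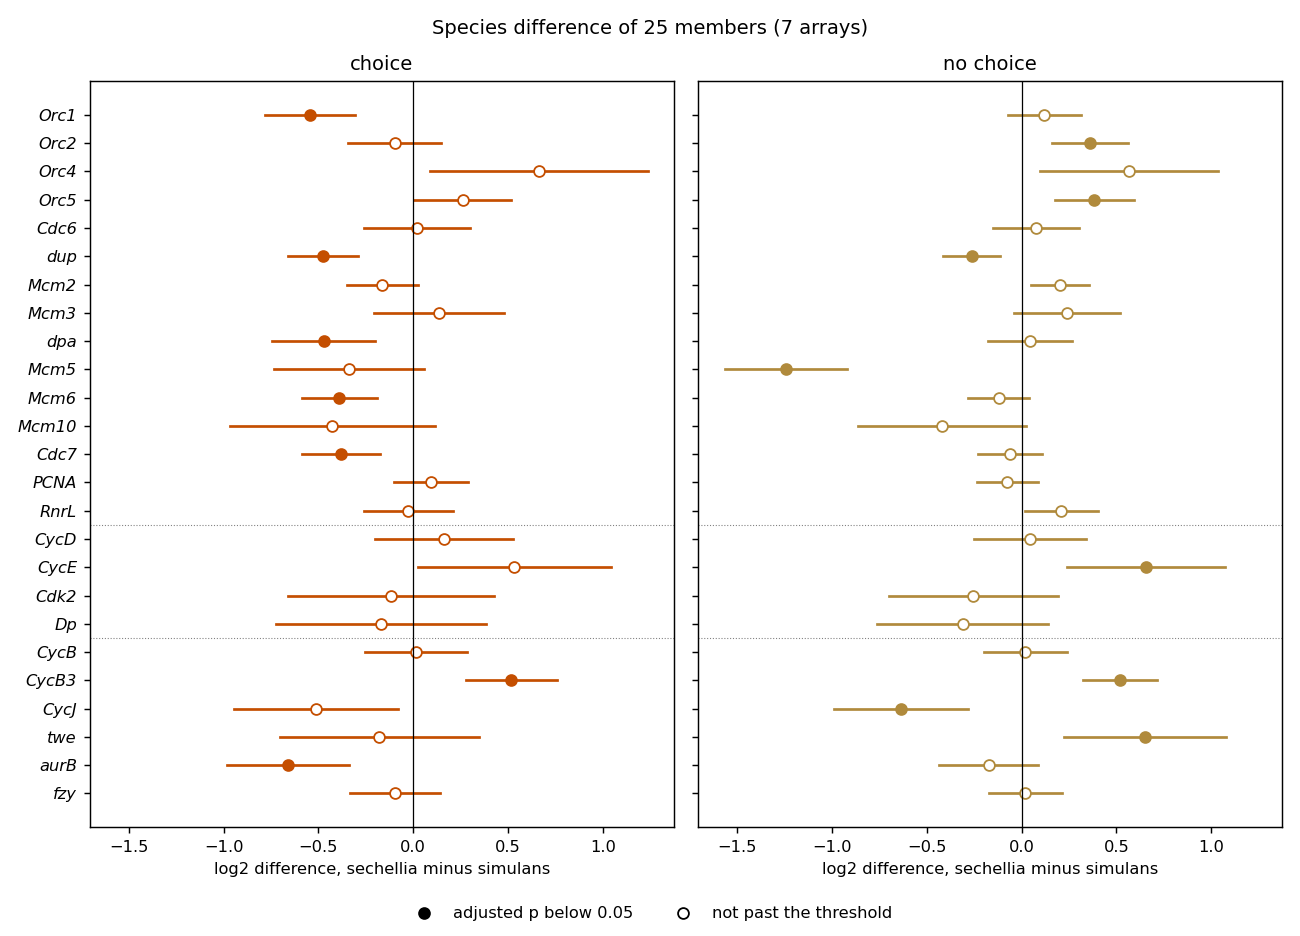
Log2 difference between sechellia and simulans (horizontal axis, sechellia minus simulans) for the 25 genes (vertical axis) under choice and without choice, fitted on 7 arrays; lines are 95% intervals, filled circles passed an adjusted p of 0.05, and dotted lines part replication, G1 to S and mitotic genes. Most intervals lie within 1 log2 unit of 0, and Mcm5 without choice, at -1.24, is the point farthest from 0.

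Within each species, choice moved no gene of the list past the threshold. In sechellia, the comparison of its choice array 2 with the 2 no choice arrays gave 0 calls among the 25 genes in limma, with 8 at an unadjusted p below 0.05, where 2.49% of all tested probe sets were called. With 8 arrays the count was also 0, as deposited (8 at an unadjusted p below 0.05) and quantile normalised (5), where 0.0533% and 0.152% of all tested probe sets were called. The estimate was below 0 for 22 of the 25 genes, with a median log2 difference of -0.17, against 0.04 over all tested probe sets. It was -0.25 over the 15 replication genes, or a level lower by 15.6%, and -0.16 over the 6 mitotic genes. The 25 values rest on the same 3 arrays, so their shared sign is not that of 25 separate measurements. Centring each array on its median shifted every estimate of this comparison by log2 -0.11, and 2 genes, Orc1 at -0.50 and Mcm2 at -0.43, then passed the threshold (limma adjusted p = 0.036 for each). The share of all tested probe sets called after centring is not given here, so these 2 genes cannot be set against it.

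Orc1 and Mcm2 also had the smallest limma p-values among the genes with a lower estimate as deposited. Orc1 read 1250.5 on array 2 of sechellia choice, against 1674.6 and 1589.2 in sechellia no choice, a difference of log2 -0.38 ± 0.10 (limma adjusted p = 0.10). Mcm2 read 2872.4, against 3669.2 and 3505.5, a difference of -0.32 ± 0.08 (limma adjusted p = 0.086). In both genes the choice array lay below both no choice arrays.

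Mcm5 had the largest positive estimate. It read 499.7 on array 2 of sechellia choice, against 336.1 and 317.9 in sechellia no choice, a difference of 0.61 ± 0.17 (95% interval 0.22 to 1.01; limma adjusted p = 0.11). The sechellia no choice arrays also enter its species difference without choice, so both values share them. CycB3 and CycJ were the other genes above 0, at 0.15 and 0.20.

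In simulans, with 2 arrays on each side, 0 of the 25 genes were called in limma, with 5 at an unadjusted p below 0.05, where 0.274% of all tested probe sets were called. With 8 arrays it was 0 as well, as deposited (1 at an unadjusted p below 0.05) and quantile normalised (0), where 0.00761% and 0% of all tested probe sets were called. The median difference was 0.01, against 0.00 over all tested probe sets. It was 0.01 over the replication genes and 0.12 over the mitotic genes. The meiotic phosphatase gene twe had the largest estimate, 0.60 ± 0.19 (95% interval 0.17 to 1.02; limma adjusted p = 0.20), from 493.9 and 461.9 in simulans choice, against 350.2 and 285.3 in simulans no choice. These groups did not overlap. For the other 24 genes the 95% interval of the choice effect lay within 1 log2 unit of 0.

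**Figure D3:**
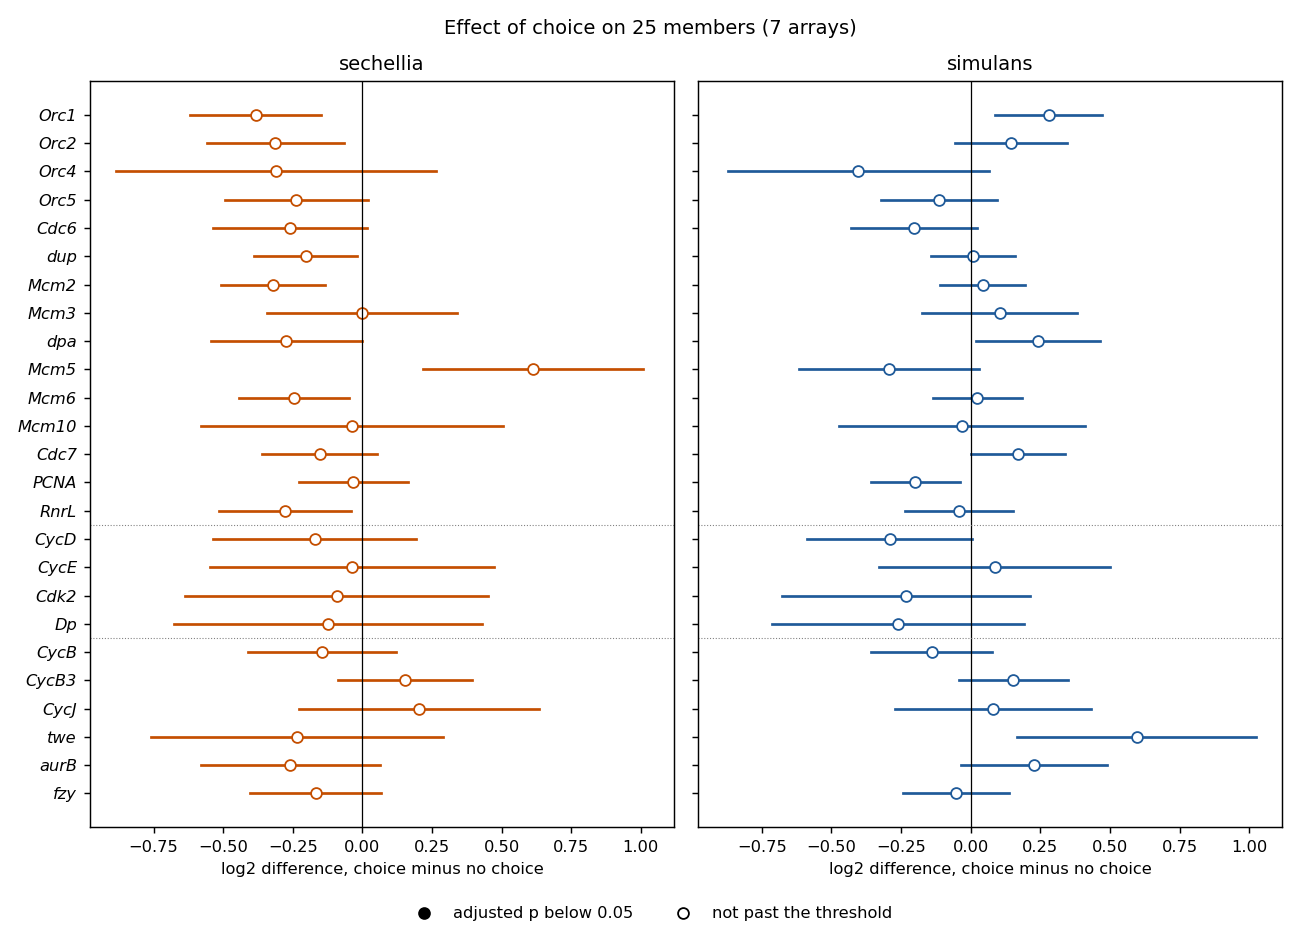
Log2 difference between choice and no choice (horizontal axis, choice minus no choice) for the 25 genes (vertical axis) in sechellia, where choice is array 2 alone, and in simulans; lines are 95% intervals and open circles did not pass an adjusted p of 0.05. No circle is filled in either species; in sechellia 22 of 25 points lie left of 0, and in simulans 12 do.

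The effect of choice differed between the species for 1 of the 25 genes, Orc1, or 4%, where 2.79% of all tested probe sets were called, 1.34% higher and 1.45% lower. Its interaction, which takes the difference made by choice in sechellia and subtracts the one in simulans, was log2 -0.66 ± 0.13 (limma adjusted p = 0.042), made up of -0.38 in sechellia and 0.28 in simulans. On the arrays it read 1250.5 in sechellia choice (array 2), 1674.6 and 1589.2 in sechellia no choice, 1721.3 and 1928.2 in simulans choice, and 1473.1 and 1529.6 in simulans no choice. The call was lost without any 1 of 6 arrays, at adjusted p-values of 0.072 to 0.13, and with 8 arrays, at 0.64 as deposited and 0.66 after quantile normalisation, where 0.0152% and 0.0761% of all tested probe sets were called. Mcm5 had the largest estimate of the other sign, 0.91 ± 0.22 (limma adjusted p = 0.079). Mcm2, dpa, Orc2, twe and aurB had interactions of -0.36, -0.51, -0.46, -0.83 and -0.49, none past the threshold.

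Array 1 of sechellia choice gave other values for most of the genes. As deposited, 16 of the 25 lay below the lowest of the 7 other arrays and 3 above the highest, against 29.9% and 46.7% of all tested probe sets. After quantile normalisation of the 8 arrays the counts were 17 below and 4 above, against 40.1% and 32.9%. Signals on array 1 spanned a narrower range, with an SD of log2 of 1.39, against 2.06 to 2.15 on the others. Its median signal was 315.5, against 109 to 128.1. The 25 genes lay at the 63.7 to 99.5 percentile of mean signal, whereas the tested probe sets include dimmer ones. These shares are therefore not a like background, and that of equally bright probe sets is not given here. The 25 genes differed between the 2 sechellia choice arrays by a median of log2 0.68 in absolute terms, against 0.11 in sechellia no choice, 0.14 in simulans choice and 0.09 in simulans no choice.

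The genes did not move alike on it. The helicase subunit dpa read 192.8 on array 1, against 1501.8 on array 2, and stood at 76.3 after quantile normalisation. The anaphase activator fzy read 226.2, against 1501.4, and stood at 93.2. The kinase gene aurB read 159.7, against 417.3, and stood at 58.6. These 3 genes were lower on array 1, and normalisation placed them lower still.

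Other genes stood higher on array 1. Mcm5 read 891.6 on it, against 499.7 on array 2, Mcm10 read 720.6, against 287.9, and Orc5 read 1277, against 817.3. After quantile normalisation these 3 stood at 943.8, 662.8 and 1634. The genes nearest to array 2 were Orc1, at 1201.8 against 1250.5, and twe, at 443.6 against 421.6. With this array in place of array 2, limma called 20 of the 25 genes in the comparison of choice with no choice in sechellia, 3 higher and 17 lower, and 8671 of all 13138 probe sets. The 8671 are not split by direction here, so the 17 lower genes cannot be set against the array at large.

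**Figure D4:**
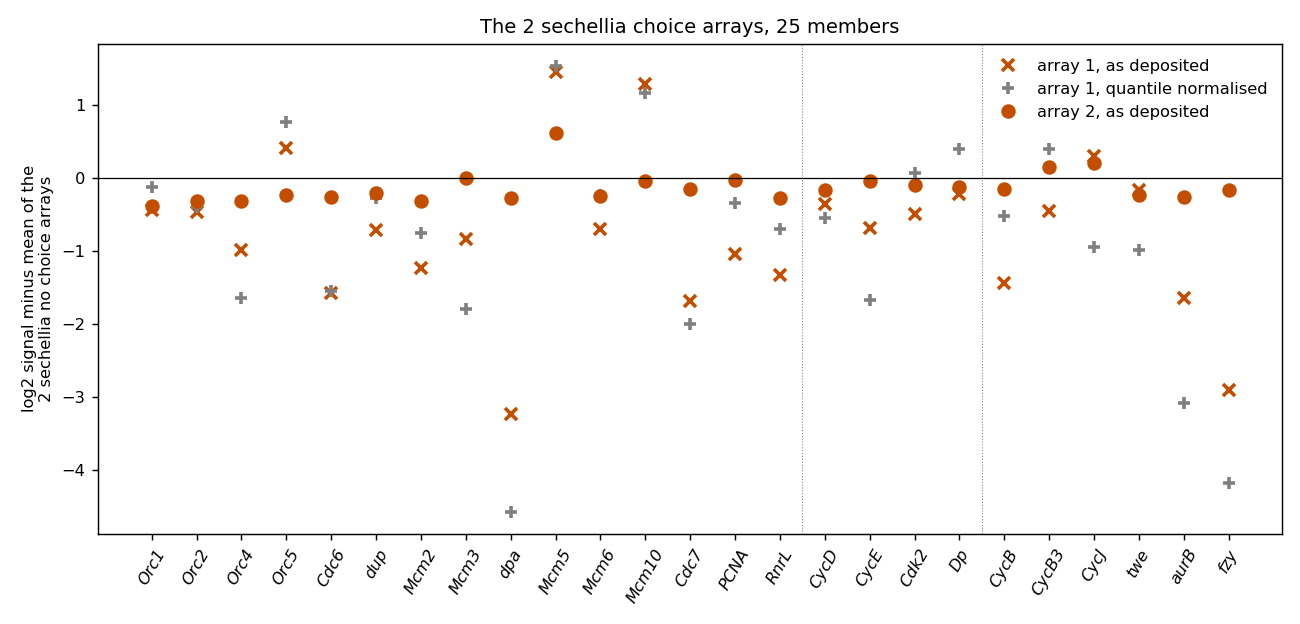
Log2 signal of each of the 25 genes (horizontal axis) on the 2 sechellia choice arrays, minus the mean of the 2 sechellia no choice arrays (vertical axis); crosses are array 1 as deposited, plus signs array 1 after quantile normalisation, circles array 2 as deposited, and dotted lines part replication, G1 to S and mitotic genes. The circles stay between -0.38 and 0.61, while the crosses run from far below 0 for dpa and fzy to above 1 for Mcm5 and Mcm10.

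The other measured genes of the pathway, 87 with a probe set from 114 symbols listed, spread in both directions as well. Without choice 19 were higher and 15 lower in sechellia, or 39.1%, against 28.2% of all tested probe sets, with a median log2 difference of 0.00. With 8 arrays the counts were 3 of 87 as deposited, or 3.45% against 4.22% of all tested probe sets, and 2 of 87 after quantile normalisation, or 2.3% against 4.02%, so the share no longer lay above that of the array at large. By class, with 7 arrays, the cohesin and condensin genes had 4 of 9 higher and 1 lower, the genes of the chromosomal passenger complex, checkpoint and kinetochore 3 of 13 higher and 3 lower, and the cyclin and Cdk regulators 3 of 12 higher and 3 lower. The 5 subunits of GINS and Cdc45, the partners of MCM in the moving helicase, had 1 higher and 1 lower.

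Among the pathway genes that were called, those with the largest positive differences were shtd, a scaffold subunit of the anaphase promoting complex (1.57 ± 0.16), CycH, of the Cdk-activating kinase (1.0 ± 0.17), the cohesin gene SMC3 (0.82 ± 0.18), the polymerase subunit gene PolD2 (0.80 ± 0.13) and the passenger gene borr (0.70 ± 0.09). The largest negative ones among the called genes were sub, a kinesin of the meiotic spindle (-1.76 ± 0.35), Psf3, of GINS (-1.47 ± 0.18), Fen1, which trims Okazaki fragments (-1.41 ± 0.23), the checkpoint kinase gene Mps1 (-0.94 ± 0.18) and cort, the Fizzy relative of female meiosis (-0.92 ± 0.12). All had limma adjusted p-values of 0.0097 or lower with 7 arrays, and only SMC3 lost its call in a fit that left out 1 array (array 2 of sechellia no choice or array 2 of simulans no choice). With 8 arrays as deposited shtd, Psf3 and cort were called, and after quantile normalisation cort was. The value for sub rests on dim signal. It read 32.6 and 34.6 on the sechellia no choice arrays, where the bacterial control medians were 28.1 and 14.75.

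Choice in sechellia called 5 of these 87 genes, 1 higher and 4 lower, or 5.75%, against 2.49% of all tested probe sets; these 5 are named because the count is small and were picked after their values were seen. With 8 arrays 0 of the 87 were called in limma, as deposited (21 at an unadjusted p below 0.05) or quantile normalised (18). The kinesin gene sub read 185.7 on array 2 of sechellia choice (373 on array 1), against 32.6 and 34.6 in sechellia no choice. Those no choice values lay near the bacterial control medians of the same arrays, 28.1 and 14.75. The gene shtd read 182.1 (259.1 on array 1), against 526.4 and 557.5, and CycH read 982.5 (293.8 on array 1), against 2400.1 and 1969.9. Cks30A, a Cdk subunit of female meiosis, read 1428.4 (1092.8 on array 1), against 2460.3 and 2504.2. Mad1, of the spindle checkpoint, read 256.9 on array 2, against 432.4 and 418.6, but 676.8 on array 1, so the 2 choice arrays lay on opposite sides of the no choice arrays. For the other 4 genes both choice arrays lay on the same side. Of all tested probe sets, however, 46.7% read above all 7 other arrays on array 1 and 29.9% below. Those shares are not the rate at which probe sets lay on the same side of the no choice arrays on both choice arrays. That rate is not given here, so agreement on array 1 is not taken as support for these calls. In simulans 0 of the 87 were called in limma, with 20 at an unadjusted p below 0.05. The interaction called 2 of the 87, shtd at -2.11 and scra, the anillin of the contractile ring, at -0.75, both lower. That is 2.3%, against 2.79% of all tested probe sets, so the share did not lie above that of the array at large. With 8 arrays the interaction called 0 of the 87 in limma, as deposited (13 at an unadjusted p below 0.05) or quantile normalised (9).

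Of 14 eggshell genes of the follicle cells listed, 11 had a probe set. With 7 arrays all 11 were lower in sechellia without choice (median log2 -2.06), where 13.7% of all tested probe sets were lower, and 5 were lower under choice (median -0.48), where 9.78% were. All 11 were higher in choice than in no choice in sechellia (median 1.73), where 2.49% of all tested probe sets were called. The replication genes had medians of 0.08, -0.16 and -0.25 in these comparisons. With 8 arrays the counts without choice were 9 as deposited and 10 after quantile normalisation, where 4.22% and 4.02% of all tested probe sets were called. Those for choice in sechellia were 1 (median 1.07) and 6 (median 1.40), where 0.0533% and 0.152% were called. The count between species under choice was 2 as deposited, where 4.14% were called. Their summed signal was 104486.4 on array 2 of sechellia choice (48767.4 on array 1) and 42357.1 and 43993.1 in sechellia no choice, against 129124.5 and 129217.6 in simulans choice and 140715.6 and 157565.2 in simulans no choice.

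Of 19 germline genes listed, 15 had a probe set. In sechellia 2 were higher and 3 lower without choice, or 33.3% against 28.2% of all tested probe sets, and 6 were lower under choice, or 40% against 19.4%. The sechellia side under choice is array 2 alone. With 8 arrays as deposited 1 was lower without choice and 1 under choice. That is 6.67% in each, against 4.22% and 4.14% of all tested probe sets. Choice in sechellia called 3 lower, or 20% against 2.49%, and the interaction 4 lower, or 26.7% against 2.79%; in simulans 0 were called in limma, with 6 at an unadjusted p below 0.05. With 8 arrays choice in sechellia and the interaction called 0 in limma, as deposited (5 at an unadjusted p below 0.05 in each) or quantile normalised (6 and 4). Their summed signal was 38568.8 on array 2 of sechellia choice (26518 on array 1) and 42714.2 and 45005.9 in sechellia no choice, against 46474.2 and 45697.9 in simulans choice and 49384.9 and 48253.9 in simulans no choice.

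The part of ovarian cell makeup in the values of the 25 genes was not tested. In RNA from bodies, fewer cells of a type and less RNA per cell cannot be told apart. Of 8 male markers with a probe set, 4 passed the filter on dim signal. None was called in the species comparison without choice, where 28.2% of all tested probe sets were. The summed signal of the 8 was 341.2 to 776.3 on the 7 arrays and 3390.5 on array 1 of sechellia choice. On array 1, 46.7% of all tested probe sets read above all 7 other arrays. The 2 haemocyte markers summed to 1353.4 there, against 275.1 to 559.3. The cause of the rise was not tested. No marker of any list was at 0; the sperm gene dj was at or below the bacterial controls on all 8 arrays.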

How the data were processed

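RNA from adult female bodies was hybridised to 8 Affymetrix arrays, 2 for each of 4 groups set by the labels. The deposited values are MAS5 signals, per the submitters' processing notes, an intensity on a linear scale that the authors had scaled to about the same trimmed mean on every array (499.4 to 499.7); MAS5 settings are not given in the sources used here. Probe sets were named from the platform annotation where it gave 1 symbol. From these intensities, log2 values were computed, 183 control probe sets and the 30% dimmest probe sets were left out, and 13138 were tested with limma 3.58.1 in R 4.3.3 (a mean per group, intensity trend in the variance, Benjamini-Hochberg adjustment over all of them, threshold 0.05). The script was tested on simulated data.

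Array 1 of sechellia choice was left out of the tests and shown apart. All 6 comparisons were repeated with 8 arrays, with quantile normalisation, and under the other settings named in the closing section; 1 of these (8 arrays, fitted on the compared arrays only) was added after the data were seen. No 2 arrays held identical values. Full values are given for genes called between the species without choice, for the gene of smallest p in each role class with none called, and for genes called under choice or in the interaction; at most 5 pathway genes per direction are named. The genes, lists and tests were chosen with earlier results of these data known. Arrays of the same number did not deviate together across groups (r of their differences -0.123 to 0.052), so numbers were not treated as pairs. The number of arrays limits the precision.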

Additional observations from a re-analysis of the deposited data

Results flagged for a closer look

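The effect of choice on Orc1 differed between the species by the interaction term. The interaction was log2 -0.66 ± 0.13 (limma adjusted p = 0.042), from a choice effect of -0.38 in sechellia, where choice is array 2 alone, and 0.28 in simulans, neither of them past the threshold by itself. Both simulans choice arrays read above both simulans no choice arrays, and the sechellia choice array read below both sechellia no choice arrays. The call was lost in each of the 6 fits that left out 1 array.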

How the results depend on the processing

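Counts of the 25 genes called depended most on array 1 of sechellia choice, the intensity trend and single arrays. Where a count moved, the cause was not tested. Shares of all tested probe sets called are given above for 7 arrays and for 8 arrays, as deposited and quantile normalised. For the other settings they are not given, apart from array 1 in place of array 2 for choice in sechellia. Counts under those settings therefore cannot be set against the array at large. Without choice, 8 genes differed between the species, against 0 with 8 arrays as deposited, 0 with 8 arrays quantile normalised, 2 with no intensity trend, and 4 to 8 when 1 array was left out. Under choice the 7 became 0, 1 and 0 under the same settings, 16 with array 1 of sechellia choice in place of array 2, 0 with 8 arrays as deposited fitted on the compared arrays only, and 3 to 8 when 1 array was left out. Averaged over treatments the 11 became 0, 2 and 6, and 9 to 12 when 1 array was left out. In sechellia the count for choice was 0, 2 after centring on the median and 20 with array 1 in place of array 2; in simulans it was 0 under every setting run. The interaction count of 1 became 0 with 8 arrays, as deposited or quantile normalised, with no filter on dim probe sets, with no intensity trend and without each single array, and 18 with array 1 in place of array 2. With the replicate block the interaction count was 0, and the other counts were 9 without choice, 7 under choice, 11 averaged over treatments and 0 for choice in each species. With array 1 in place of array 2, CycB3 under choice turned to -0.08 (limma adjusted p = 0.49), and Mcm5, not called under choice, turned to 0.50 (limma adjusted p = 0.028). Over 37 called results for single genes and all settings, 519 of 660 values kept their direction and call, 140 kept the direction and lost the call, and 1 reversed. These 37 pool the 25 genes with the pathway genes named above for their large differences without choice, so they do not describe the 25 genes alone. Array 1 of sechellia choice does not enter the means without choice. Adding or exchanging it as deposited could therefore not reverse those results. Dim signal limits the 2 lesser fzy probe sets.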
